A study of Mus musculus with 3 samples.

Results

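Granule genes of blood cells, 10 in number, were followed across 3 sorted populations of mouse bone marrow: Mpo, Elane, Prtn3, Ctsg, Ms4a3, Prg2, Mcpt8, Hdc, Cst7 and Nkg7. They were taken by symbol out of 23393 gene rows, and all 10 had a row. The set had been selected on its levels in these same 3 libraries, so those levels describe the genes and support nothing about them. The populations came from C57BL/6 mice and were sorted as LSK cells, which lack lineage markers, carry Sca-1 and c-Kit, and hold the stem cells and early progenitors of the marrow. Multipotent progenitors (MPPs) were gated as CD48-positive and CD150-negative and carry the genotype label Map17-GFP-. Hematopoietic stem cells (HSCs) had the opposite gate, without CD48 and with CD150, and were divided by a green fluorescent reporter of Map17 (the gene Pdzk1ip1) into Map17-GFP- and Map17-GFP+ fractions. Each population had 1 library, and the sources used here do not give the age and number of the mice behind a library. The values are normalized counts per gene, called levels below, and without replicates there was no error to weigh a difference by, and no test.

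Granules are the storage organelles of myeloid and cytotoxic cells, and their proteins are made at set stages of maturation. Neutrophil precursors fill the primary (azurophil) granules first, with myeloperoxidase and a family of serine proteases, and make the proteins of the later granules afterwards. Basophils, mast cells, eosinophils and cytotoxic lymphocytes fill their granules with other sets of proteases, basic proteins and amines. Transcripts of the primary granule are known to appear early, in progenitors that are turning toward granulocytes and monocytes.

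The sort was visible in the genes of its markers. Cd48 stood at 7744 in MPPs, then 168 in GFP- and 64 in GFP+ HSCs, and Slamf1, which encodes CD150, stood at 17, 2144 and 2219. Pdzk1ip1 stood at 290, 3673 and 5659 in the same order. After the authors' scaling the levels summed to 25311805 to 26689660 per library, over 15462 to 15834 genes above 0, and the sequencing depth itself is unknown. The libraries differed in Xist, at 2262, 6137 and 3087, and in the sum of 4 Y-linked genes, at 6042, 5841 and 7393, and the part of the sex of the mice in any of the differences was not tested. The 11951 genes whose levels averaged 50 or more were compared by log2 of the ratio of levels after adding 5 to each.

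All 10 granule genes were highest in MPPs. Their levels together came to 180176 in MPPs, then 7724 in GFP- and 6489 in GFP+ HSCs, which was 0.675%, 0.0304% and 0.0256% of the library. Without Mpo the sums were 44767, 4966 and 3739. In MPPs 7 of the 10 stood above 1000, against 2 of 10 in each HSC fraction, and those 2 were Mpo and Prtn3. All 10 passed the abundance filter, but Mcpt8, Hdc and Cst7 stayed below 50 in both HSC fractions and passed only through MPPs. In whole-population RNA, fewer cells that express a gene and less RNA per cell cannot be told apart.

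**Figure D1:**
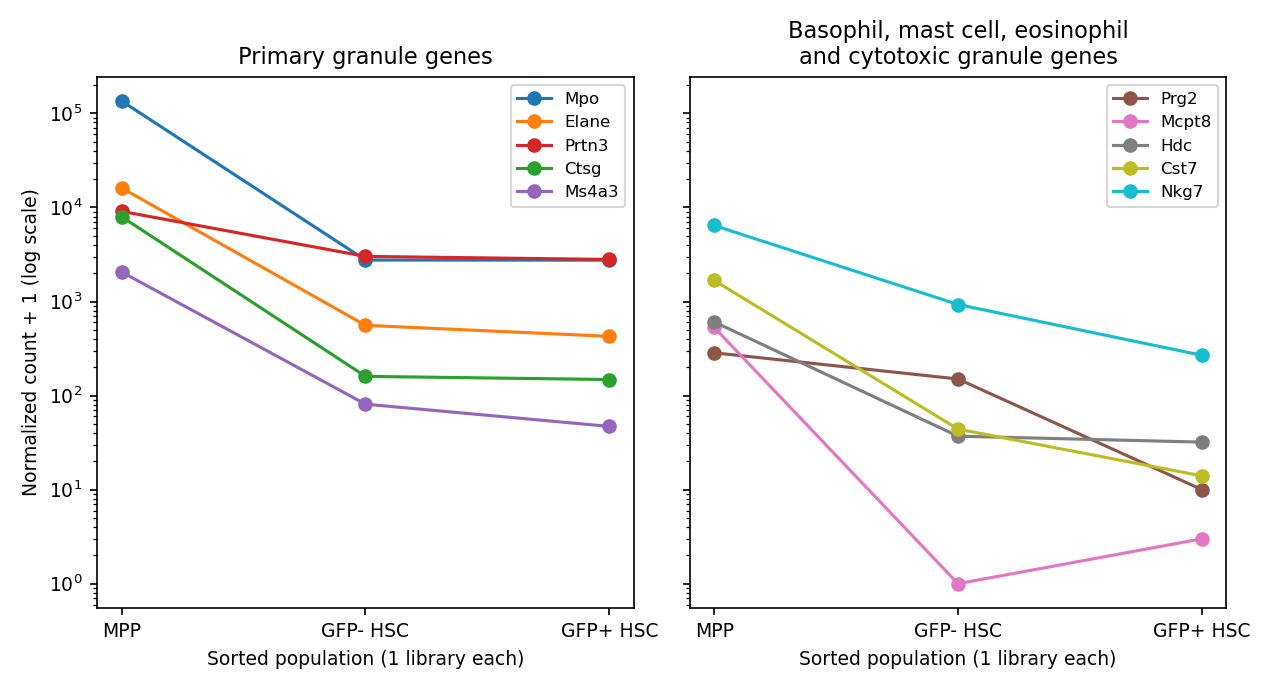
Normalized count plus 1 on a log axis in MPPs, GFP- HSCs and GFP+ HSCs, with 1 point per library and lines that join the points of a gene. The left panel holds the primary granule genes Mpo, Elane, Prtn3 and Ctsg, and with them Ms4a3, which encodes a membrane protein. The right panel holds the 5 genes of other granules. Mpo goes from 135409 in MPPs to 2758 and 2750 in the HSC fractions, where its level is near that of Prtn3, and Prg2 goes from 149 to 9 between the HSC fractions.

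GFP- HSCs were compared with MPPs to set stem cells beside progenitors, both sorted as GFP-, although the level of Pdzk1ip1 was 12.7-fold higher in GFP- HSCs. Of the 10 granule genes, 9 were at least 2-fold lower in GFP- HSCs, while 5.53% of the 11951 genes compared were. Of the same 10, 0 were 2-fold higher, against 11.6% of all genes. The levels had served to choose the genes, so the count only describes them. Their log2 ratios ran from -6.74 for Mcpt8 to -0.91 for Prg2, with a median of -4.72, beside a median of -0.01 over all genes compared. Mcpt8 was listed at 0 in GFP- HSCs, so its ratio depends on the 5 added to each level. In GFP+ HSCs against MPPs, all 10 were at least 2-fold lower, where 8.61% of all genes were, and the median was -5.28 beside 0.01. The comparisons share the MPP library. The size of the difference varied widely: among the 9 genes with a level above 0 in GFP- HSCs, the ratio of levels ran from 1.91-fold for Prg2 to 50.1-fold for Ctsg.

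Mpo encodes myeloperoxidase, the haem enzyme of the primary granule that makes hypochlorous acid, and lies on chromosome 11 from 87793581 to 87804413 (plus strand, GRCm38, the build also called mm10). It stood at 135409 in MPPs, then 2758 in GFP- and 2750 in GFP+ HSCs. Per kilobase of its longest transcript, Mpo was number 3 of 11873 genes in MPPs, number 2018 in GFP- HSCs and number 1967 in GFP+ HSCs. The GFP- HSC level was 49.1-fold below the MPP level, and both HSC fractions had nearly the same level. Outside the 10 granule genes, which were left out of every such search, the gene with the most similar pattern over the 3 libraries, by distance between the log2 ratios, was Atp8b4, at 4049, 83 and 82.

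Elane, Prtn3 and Ctsg encode serine proteases of the primary granule: neutrophil elastase, proteinase 3 and cathepsin G. Elane (chromosome 10, 79886247 to 79888215, plus strand) stood at 16125 in MPPs, then 557 in GFP- and 425 in GFP+ HSCs. Ctsg (chromosome 14, 56099881 to 56102574, minus strand) stood at 7969, 159 and 147. Both followed Mpo, with a 28.9-fold lower level for Elane and a 50.1-fold lower level for Ctsg in GFP- HSCs than in MPPs. Atp8b4 was also the nearest gene outside the 10 in pattern to Ctsg, and Wfdc17, at 1075, 34 and 22, was the nearest to Elane.

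Prtn3 differed less between MPPs and HSCs. It lies 3073 bases before Elane on the same strand (chromosome 10, 79874476 to 79883174) and stood at 9085 in MPPs, then 3014 in GFP- and 2799 in GFP+ HSCs. That put the HSC levels 3.01-fold and 3.25-fold below the MPP level. In percent of the MPP level, GFP- and GFP+ HSCs had 33.2% and 30.8% of Prtn3, against 3.45% and 2.64% of Elane and 2.04% and 2.03% of Mpo. The patterns nearest to Prtn3 were those of Slco3a1, at 6057, 1974 and 1830, and of Alas1, the first enzyme of haem synthesis, at 4566, 1520 and 1471. An upstream first exon of Prtn3 in GENCODE shares 159 of 1732 exonic bases with Plppr3 on the opposite strand, and an antisense gene, Gm11505, shares 512 of the 3424 exonic bases of Mpo. The libraries do not mark the strand and no row was matched to either partner, so their part in the levels of Prtn3 and Mpo was not tested.

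The order of the granule transcripts per length therefore differed between the populations. In MPPs, Mpo had 49240 per kilobase, Elane 16387, Prtn3 8863, Ctsg 7953 and Nkg7 7302. In GFP- HSCs, Prtn3 came first with 2940 per kilobase, followed by Nkg7 with 1053, Mpo with 1003 and Elane with 566. In GFP+ HSCs, Prtn3 had 2731 per kilobase, Elane 432 and Nkg7 303, and Mpo lay between Prtn3 and Elane. Nkg7 and Mpo were close in GFP- HSCs, and without replicates their order there cannot be told from library noise. Prtn3 made up 9.44% of the summed level per kilobase of the 10 genes in MPPs, then 49.0% in GFP- and 58.4% in GFP+ HSCs, and the share of Mpo was 52.5%, 16.7% and 21.4%. Per kilobase, Mpo exceeded Prtn3 5.56-fold in MPPs, and Prtn3 exceeded Mpo 2.93-fold in GFP- and 2.73-fold in GFP+ HSCs.

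**Figure D2:**
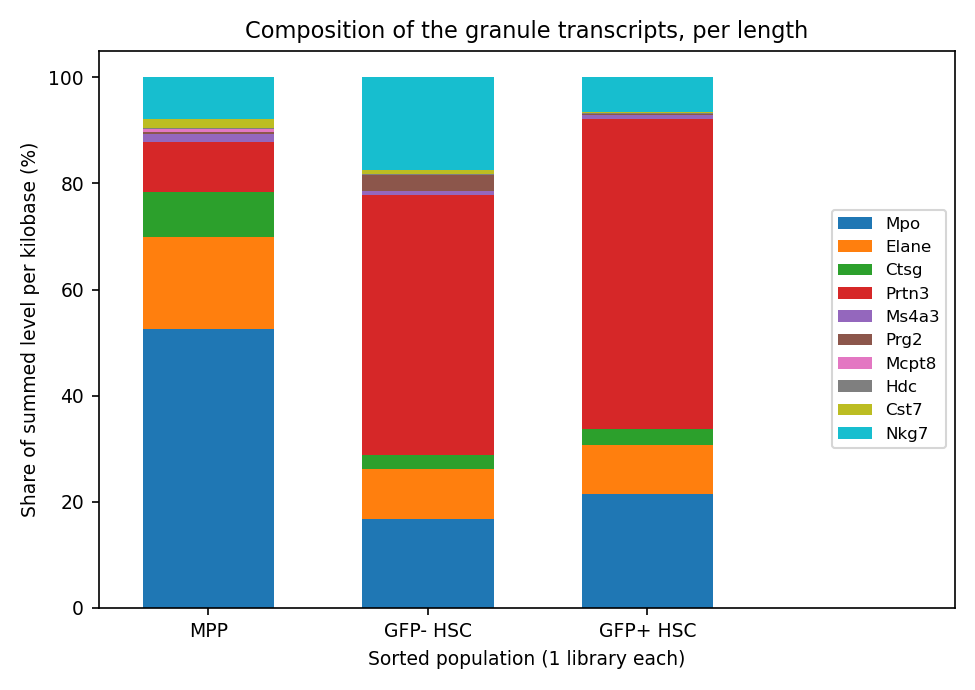
Share of each granule gene in the summed level per kilobase of the 10 genes, in percent, as stacked bars for MPPs, GFP- HSCs and GFP+ HSCs (1 library each). Mpo fills 52.5% of the MPP bar, and Prtn3 fills 49.0% and 58.4% of the HSC bars.

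The sequence before the start site was read for these genes because Elane and Prtn3 are neighbours with unlike ratios between HSCs and MPPs. RefSeq promoters (GRCm38.p6), spanning 250 bases before the annotated start and 50 after it, were matched for 9 of the 10 genes, the exception being Prg2. A motif bound by PU.1 and other ETS factors, which act in myeloid cells, was found in 5 of the 9, those of Mpo, Elane, Prtn3, Ctsg and Cst7, when its letters AGGAAGT were searched on both strands. Of 32851 promoters of the same length in the table, 9.35% held it. The stretches below run 5' to 3' on the strand of the gene, with the motif in capitals, and leave out bases that GENCODE places in an exon of that gene. The 5 that hold the motif are shown so that its surroundings can be compared, and Mcpt8 is shown as one without it.
Elane, chr10:79886062-79886246, plus strand: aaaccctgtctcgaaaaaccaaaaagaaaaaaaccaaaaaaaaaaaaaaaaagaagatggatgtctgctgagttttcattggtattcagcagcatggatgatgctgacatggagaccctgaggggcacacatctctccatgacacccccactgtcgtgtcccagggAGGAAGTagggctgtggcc
Prtn3, chr10:79879417-79879613, plus strand: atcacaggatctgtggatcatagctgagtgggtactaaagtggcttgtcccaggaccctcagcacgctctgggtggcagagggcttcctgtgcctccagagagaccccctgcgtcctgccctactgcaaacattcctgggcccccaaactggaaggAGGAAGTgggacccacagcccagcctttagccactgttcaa
Mpo, chr11:87793534-87793580, plus strand: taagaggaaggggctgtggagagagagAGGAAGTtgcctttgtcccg
Ctsg, chr14:56102575-56102824, minus strand: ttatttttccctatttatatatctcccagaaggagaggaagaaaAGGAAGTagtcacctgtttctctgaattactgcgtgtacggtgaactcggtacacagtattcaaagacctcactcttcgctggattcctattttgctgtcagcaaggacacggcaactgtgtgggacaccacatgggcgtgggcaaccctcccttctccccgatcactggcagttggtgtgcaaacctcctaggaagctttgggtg
Cst7, chr2:150570165-150570414, plus strand: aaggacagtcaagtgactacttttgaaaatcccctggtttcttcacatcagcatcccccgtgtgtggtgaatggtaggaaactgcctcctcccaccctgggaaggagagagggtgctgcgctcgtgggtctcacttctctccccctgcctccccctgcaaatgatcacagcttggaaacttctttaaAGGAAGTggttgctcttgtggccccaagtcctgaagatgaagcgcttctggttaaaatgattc
Mcpt8, chr14:56085274-56085447, minus strand: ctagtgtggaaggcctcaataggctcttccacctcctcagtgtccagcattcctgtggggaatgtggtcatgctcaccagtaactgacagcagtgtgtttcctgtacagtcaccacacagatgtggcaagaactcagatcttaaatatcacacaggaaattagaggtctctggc
In the promoters of the neighbours Elane and Prtn3 the motif sat at similar places, at -84 to -78 and at -94 to -88, counted from -1 for the base just before the RefSeq start. Both also held the letters TATAA, at -31 to -27 in Elane and -32 to -28 in Prtn3. GENCODE places these letters in an exon of each gene, so they are not in the stretches above. In Mpo and Ctsg the motif lay farther out, at -223 to -217 and -206 to -200, and in Cst7 nearer, at -63 to -57. These places depend on the start used. Within the 250 bases before the RefSeq start, GENCODE exons reach 203 bases out in Mpo, 65 in Elane and 53 in Prtn3. The GENCODE gene of Prtn3 starts farther upstream, at 79874476, before the whole stretch shown for it. The similar places in Elane and Prtn3 therefore also rest on the RefSeq starts. Counted from the GENCODE starts of Mpo and Elane, the motifs of both genes would lie much nearer, so their difference in place holds for RefSeq only.

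Other motifs were searched in the same way, and no word searched contains another. TGTGGT, the core of RUNX sites, was found in 4 of the 9 promoters (Ctsg, Mcpt8, Cst7 and Nkg7) and in 16.8% of all. TTGNNNAA, a loose form of C/EBP sites, was found in 3 of 9 (Ms4a3, Hdc and Cst7) and in 36.7% of all. TATAA was found in 3 of 9 (Elane, Ctsg and Prtn3) and in 24.9% of all, and AACNG, the core of MYB sites, in 8 of 9 and in 80.3%. AGATAA, a motif of GATA factors, was found in 0 of 9 and in 11.2% of all. A match shows only that these letters are present, not that a factor binds.

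**Figure D3:**
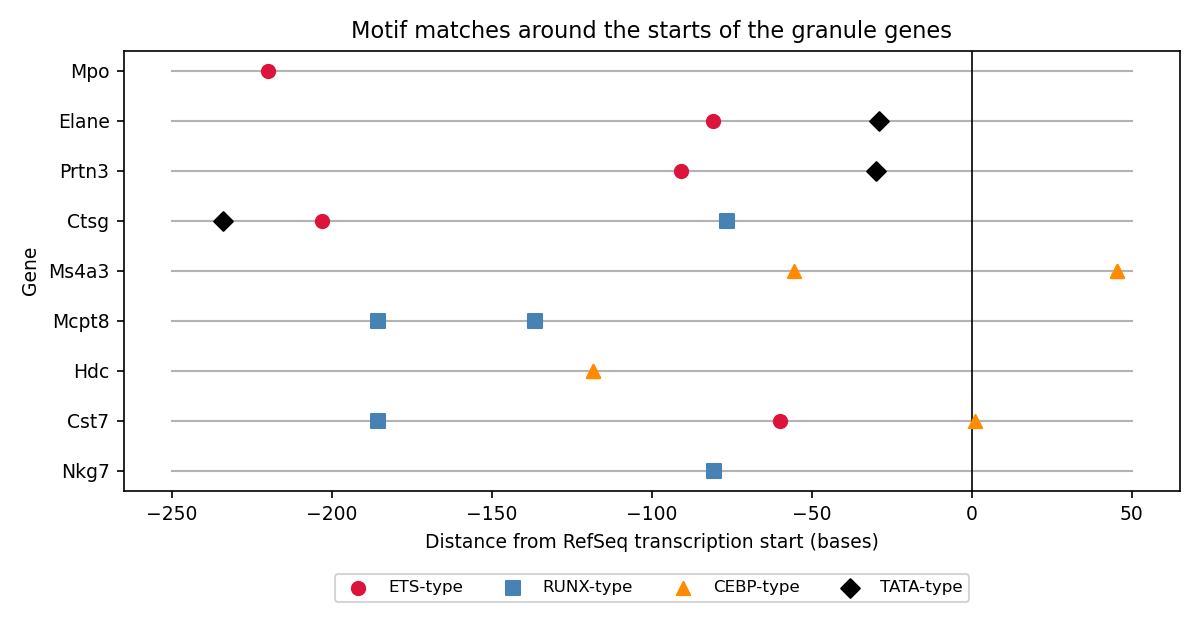
Position of motif matches on either strand, in bases from the RefSeq transcription start, for 9 granule genes, with 1 grey line per promoter and 1 symbol per match of 4 motif types. The ETS-type matches of Elane and Prtn3 start at -84 and -94 and have a TATA-type match nearer to the start, whereas those of Mpo and Ctsg start at -223 and -206. Within the 250 bases before the RefSeq start, GENCODE exons reach 203 bases out in Mpo, 65 in Elane and 53 in Prtn3. The GENCODE gene of Prtn3 starts farther upstream, outside the range drawn.

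Ms4a3 encodes a membrane protein with 4-transmembrane topology known from granulocyte-monocyte progenitors, and lies on chromosome 19 from 11629496 to 11640851 (minus strand). It stood at 2059 in MPPs, then 80 in GFP- and 46 in GFP+ HSCs. The first step was 25.7-fold down and the next 1.74-fold down. Its neighbour Ms4a2, a chain of the high-affinity IgE receptor of mast cells and basophils, stood at 58, 0 and 2. Among 14 other members of the Ms4a family with a row, 4 passed the filter. Of these, 3 were at least 2-fold lower in GFP- HSCs than in MPPs, as Ms4a6c at 1018 and 274, against 5.53% of all genes. At least 2-fold higher were 0 of the 4, against 11.6% of all genes. Ms4a4b and Ms4a4c stayed below 50 in both HSC fractions and passed only through MPPs, so the filter fixed their direction. Ms4a6b, at 688 in MPPs and 537 in GFP- HSCs, was within 2-fold. The family median of -2.34 includes Ms4a4b and Ms4a4c.

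Genes that are switched on with the primary granule in granulocyte-monocyte progenitors were also lower in HSCs. Of 15 such genes, all past the filter, 13 were at least 2-fold lower in GFP- HSCs than in MPPs, against 5.53% of all genes. At least 2-fold higher were 0, against 11.6%, and the median was -4.01. Cebpe, Fcgr3 and Ly86 stayed below 50 in both HSC fractions and passed only through MPPs, so the filter fixed their direction. Irf8, a transcription factor of monocytes and dendritic cells, stood at 8046 in MPPs, then 265 in GFP- and 368 in GFP+ HSCs. Csf1r, the receptor of macrophage colony-stimulating factor, stood at 1666, 57 and 64, and Clec12a, an inhibitory lectin receptor, at 3217, 112 and 97. Among receptors of the other colony-stimulating factors, Csf3r, at 6420, 3295 and 3021, and Csf2ra, at 1673, 1804 and 1976, were within 2-fold between GFP- HSCs and MPPs, whereas Csf2rb, the shared beta chain, was not, at 2833, 835 and 863. Between the HSC fractions the median of these genes was 0.15, with Igsf6 past 2-fold up and Plac8 past 2-fold down in GFP+ HSCs, while the median of the 10 granule genes was -0.29. Of 8 monocyte and macrophage genes past the filter, 6 were past 2-fold down and 0 past 2-fold up in GFP- HSCs against MPPs, and the exceptions included Lyz2 (lysozyme), at 6797, 5986 and 6173. Among the lower genes, Ccr2 and Cx3cr1 passed the filter only through MPPs.

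Transcripts for proteins that activate, hold, inhibit or release granule contents were not far lower as groups in HSCs, judged by list medians. Of 15 genes for granule biogenesis and release, 2 exceeded the MPP level by 2-fold or more in GFP- HSCs and 0 fell short of it as far, with a median of 0.23. The 2 higher genes were Rab27b, a GTPase of granule docking, and the membrane fusion gene Snap23. Rab27b stood at 201 in MPPs, then 1953 in GFP- and 1910 in GFP+ HSCs, and Snap23 at 1708, 3555 and 4017. Unc13d, a priming factor of granule release, stood at 5463, 8813 and 9878. Of 11 genes for activation, storage and inhibition of granule proteases, 2 were at least 2-fold lower and 1 higher, with a median of -0.10. The levels of the 12 such genes with a row summed to 51527 in MPPs, then 40078 in GFP- and 36686 in GFP+ HSCs. Srgn, the serglycin core protein on which granule proteases are packed, stood at 20243, 18854 and 15630. Ctsc, the cathepsin that trims the serine proteases into active form, stood at 2621, 2696 and 2966 and was singled out after its level was seen. The 2 lower genes encode inhibitors of neutrophil elastase, Serpinb1a at 9639, 2155 and 1204 and Slpi at 752, 29 and 37. Slpi passed the filter only through MPPs. Among 12 cathepsins past the filter the median was 0.02, with Ctss at least 2-fold lower, at 1198 and 186, and Ctsf at least 2-fold higher, at 589 and 1870.

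**Figure D4:**
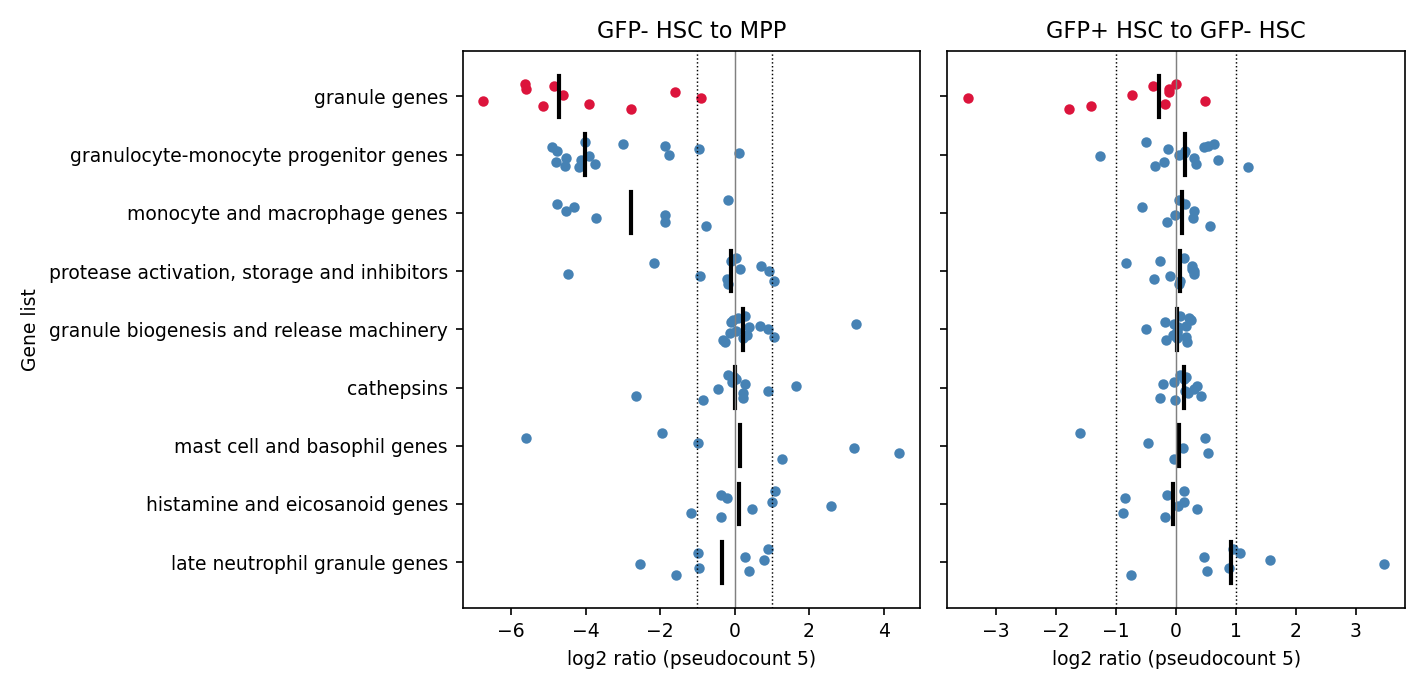
Log2 ratio (pseudocount 5) of each gene past the filter in the granule gene set and 8 related lists, for GFP- HSCs against MPPs (left) and GFP+ against GFP- HSCs (right), with 1 point per gene, a black bar at the median and dotted lines at 2-fold. The granule genes (median -4.72) and the progenitor genes (-4.01) lie far to the left in the first panel, and the biogenesis and release genes have a median of 0.23.

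Mcpt8 and Hdc belong to basophils and mast cells. Mcpt8, a serine protease of basophil granules, lies 14608 bases from Ctsg on chromosome 14 (56082166 to 56085273, minus strand) and stood at 530 in MPPs, was listed at 0 in GFP- HSCs and stood at 2 in GFP+ HSCs. Hdc, histidine decarboxylase, which makes histamine, lies on chromosome 2 from 126593667 to 126619299 (minus strand) and stood at 606, 36 and 31, a 16.8-fold lower level in GFP- HSCs than in MPPs. Both genes were thus low in the HSC libraries. The patterns nearest to Hdc were those of Dtx4, at 1771, 122 and 124, and Abcd2, at 869, 56 and 58, and the gene nearest to Mcpt8 was Chdh, at 1720, 16 and 24.

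Other mast cell and basophil genes did not share 1 pattern. Prss34, another basophil protease, stood at 237 in MPPs, then 0 in GFP- and 2 in GFP+ HSCs, close to the pattern of Mcpt8. Like Mcpt8, it passed the filter only through MPPs. Cpa3, the mast cell carboxypeptidase, stood at 461, 116 and 35. Slc18a2, the transporter that loads amines such as histamine into vesicles, was higher in HSCs instead, at 947, 8715 and 9509. So were Il4, at 3, 166 and 243, and Mitf, a transcription factor of mast cells, at 94, 234 and 230. Il4 passed the filter only through the HSC fractions, so the filter fixed its direction. Of 20 mast cell and basophil genes with a row, 6 passed the filter. Of these, 3 were past 2-fold up, Il4 among them, and 2 past 2-fold down in GFP- HSCs (median 0.15 against MPPs). Another 6 of the 20 were listed at 0 in all libraries, among them Mcpt1, Mcpt4 and the tryptase gene Tpsab1. The mast cell proteases and granzymes that share the chromosome 14 cluster with Ctsg and Mcpt8 were near 0 throughout: of 13 with a row, 10 were listed at 0 in all libraries, and their sum was 28, 3 and 0. In the histamine and eicosanoid list, 8 genes passed the filter, of which 3 were past 2-fold up and 1 past 2-fold down in GFP- HSCs, with a median of 0.13 against MPPs. Over all genes compared, 11.6% were past 2-fold up and 5.53% past 2-fold down in GFP- HSCs against MPPs. Hnmt, which inactivates histamine, stood at 436, 933 and 1020, and Ptgs1, a cyclooxygenase, at 811, 4904 and 5017.

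GFP+ HSCs were compared with GFP- HSCs, cells of the same gate, to follow the reporter. Of the 10 granule genes, 3 were at least 2-fold apart, against 1.28% of the 11951 genes compared. All 3 were lower in GFP+ HSCs, as were 0.87% of all genes, and 0 were higher, against 0.41%. The 3 were Prg2, Nkg7 and Cst7, and none of them encodes a classical azurophil protease. Cst7 was low in both fractions and no longer passed 2-fold with a pseudocount of 20 (-0.93), which left 2 genes. Mpo was level at 2758 and 2750, Prtn3 and Ctsg were 1.08-fold lower each, Hdc was 1.16-fold lower and Elane 1.31-fold lower. Ratios of the 10 ran from -3.46 to 0.49, with a median of -0.29 beside 0.01 over all genes, and the value of 0.49 belongs to Mcpt8 and rests on levels of 0 and 2. The median absolute log2 ratio of all genes was 0.14 between these libraries, and the ratios of Mpo, Prtn3 and Ctsg were smaller than that.

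**Figure D5:**
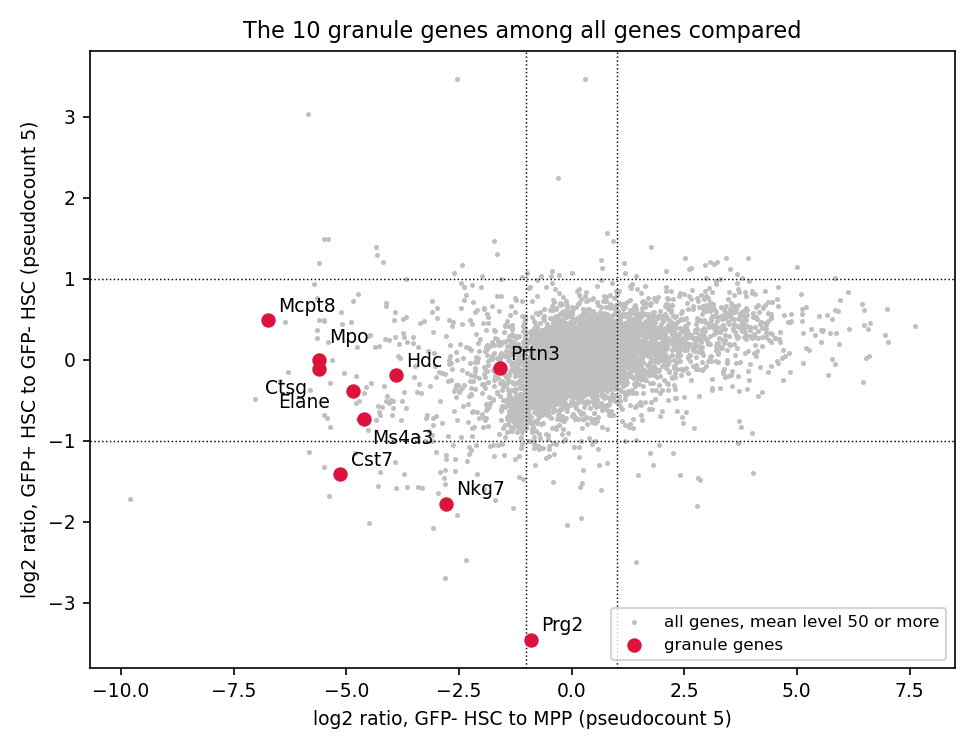
Log2 ratio (pseudocount 5) of GFP- HSCs to MPPs against that of GFP+ to GFP- HSCs, with 1 grey point for each of 11951 genes, the 10 granule genes in red and dotted lines at 2-fold. The axes share the GFP- library. Mpo, Ctsg, Prtn3, Elane, Ms4a3, Hdc and Mcpt8 lie within 2-fold on the vertical axis, and Cst7, Nkg7 and Prg2 lie below it.

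Prg2 encodes the major basic protein of eosinophil granules and lies on chromosome 2 from 84980461 to 84983632 (plus strand). It stood at 284 in MPPs, then 149 in GFP- and 9 in GFP+ HSCs. The first step was 1.91-fold down and the next 16.6-fold down. Its largest step thus lay between the HSC fractions, unlike that of the other 9. Its nearest gene in pattern, Pklr, at 101, 94 and 19, was 1.63 away on the log2 scale, so no close match existed among the genes searched. The symbol Prg2 is also listed by RefSeq as an older name of Plppr3, and the row was read as the eosinophil gene, whose current symbol it is. Some other rows carry older symbols, as Bzrap1 for Tspoap1, and no other row was matched to Plppr3. The reading of the Prg2 row was therefore not tested.

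Other eosinophil genes were low in level, and some were lowest in GFP+ HSCs. Prg3, the neighbour of Prg2 and its paralog, stood at 23 in MPPs, then 10 in GFP- and 0 in GFP+ HSCs. Epx, eosinophil peroxidase, stood at 113, 23 and 0, and Siglec5, the mouse Siglec-F of eosinophils, at 249, 45 and 4. The 10 eosinophil genes with a row summed to 446, 128 and 52, and Siglec5 alone passed the filter, only through MPPs. The part of eosinophil precursors in the level of Prg2 was not tested. Alox15 and Ccr3 did not follow, at 9, 32 and 33 and at 17, 13 and 14.

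Nkg7 encodes a membrane protein of cytotoxic granules and lies on chromosome 7 from 43437073 to 43438249 (plus strand). It stood at 6433 in MPPs, then 928 in GFP- and 267 in GFP+ HSCs, a first step of 6.93-fold down and a further one of 3.48-fold down. Cst7, cystatin F, an inhibitor of cysteine cathepsins in the granules of cytotoxic and myeloid cells, lies on chromosome 2 from 150570415 to 150578944 (plus strand) and stood at 1676, 43 and 13. Its steps were 39.0-fold and 3.31-fold down. Both genes thus stepped down at each change in the order MPP, GFP- HSC, GFP+ HSC. The gene nearest in pattern to Cst7 was Cd48, a marker of the sort itself, and the nearest to Nkg7 was Btnl9, at 166, 17 and 2.

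Most genes of cytotoxic lymphocytes were low in the libraries where Nkg7 was measured. Of 16 such genes with a row, 13 stayed below 50 in all libraries, and 9 were listed at 0 in both HSC fractions, 3 of them in MPPs as well. The list summed to 686 in MPPs, then 839 in GFP- and 724 in GFP+ HSCs, most of it from Ctsw, a cathepsin of these cells, at 424, 497 and 415, and from the receptor gene Klrb1c, at 39, 281 and 266. Neither went the way of Nkg7, whereas several genes at the bottom of the scale were highest in MPPs, as Klrd1 and Il2rb, each at 49, 0 and 0, Prf1 at 29, 2 and 3 and Gzmb at 17, 3 and 0. The part of cytotoxic cells in the level of Nkg7 was not tested. Among 9 B cell genes, Cd79b alone passed the filter, at 1109, 749 and 870, and 3 were listed at 0 in both HSC fractions.

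Genes of the late neutrophil granules were set beside those of the primary granule. Of 8 past the filter, 3 were past 2-fold up and 0 past 2-fold down in GFP+ against GFP- HSCs, with a median of 0.92. Over all genes compared, 0.41% were past 2-fold up and 0.87% past 2-fold down, with a median of 0.01. The 3 late granule genes were Chi3l3, Ngp and Lcn2, and Lcn2 was low, at 80 in MPPs, then 38 in GFP- and 85 in GFP+ HSCs. Ngp, a neutrophil granule protein, stood at 94 in MPPs, then 165 in GFP- and 499 in GFP+ HSCs, and Chi3l3 at 94, 12 and 183. The 14 genes summed to 2290, 1344 and 2168, and the highest of them by mean level, Itgam, went the other way, at 1332, 444 and 263. Elane, Ctsg and Mpo, which precede them in maturation, were not higher in GFP+ than in GFP- HSCs. The difference between both granule sets was not tested, since each population had 1 library.

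Genes that flank the granule genes on the chromosome varied in level. Lpo, lactoperoxidase, 2015 bases from Mpo, stood at 11, 1 and 0, and Cfd, complement factor D, 2638 bases beyond Elane, at 1, 6 and 0. Ptbp1, a splicing regulator before Prtn3, stood at 15251, 11396 and 10998, and Gabpb1, next to Hdc, at 4863, 3627 and 3528. Other neighbours were lower in HSCs: Tspoap1 beside Mpo, listed under its older symbol Bzrap1, stood at 493, 120 and 89, Slc27a2 beside Hdc at 195, 31 and 36, and Slc43a3 beside Prg2 at 3569, 1796 and 1298. The genes on either side of Nkg7, Lim2 and Cldnd2, were at most 22 in any library, while Nkg7 reached 6433.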

How the data were processed

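RNA was extracted from the 3 sorted populations and cDNA made with a SMART-seq v4 low input kit, per the labels' protocols. That chemistry neither marks the strand nor uses molecular identifiers. The submitters' processing notes name STAR, DESeq2 and mm10, with no version or counting tool. The deposited values are the authors' normalized counts, rounded to whole numbers, and were treated as a score because no reads could be recovered from them. Column names gave each library's population, neg and pos being taken as the GFP- and GFP+ HSC fractions. Of 23420 rows, 27 with a date for a symbol (0.212% of the summed levels) were left out.

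Ratios were log2 of (level + 5). Printed folds of single genes are ratios of levels. The filter was a mean level of 50. Lengths are those of the longest GENCODE M21 transcript, found for 99.3% of these genes, and gene positions are from GENCODE. Members, lists and motifs were chosen with earlier results of these data known. All 10 members were named, with up to 4 genes of highest mean and 3 of largest ratio per list, listed zeros, up to 2 genes nearest in pattern and the flanking genes; others were chosen after their values were seen. The 14 lists also hold a set of sort markers. The code for ratios was checked on simulated libraries with known folds. Python 3.11.15, numpy 2.4.6, pandas 2.3.3, statsmodels 0.14.6 and matplotlib 3.10.9 were used.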

Additional observations from a re-analysis of the deposited data

How the results depend on the processing

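Tried were pseudocounts of 1 and 20, filters at means of 10 and 200 or no filter, scaling to equal totals or upper quartiles, removal of the abundance trend, and a 4-fold threshold. A value counted as unmoved when it changed by at most 0.14, the median absolute log2 ratio between the HSC fractions, since no replicates exist. With a pseudocount of 20 the median of the 10 granule genes against MPPs was -4.56 in GFP- HSCs and -4.81 in GFP+ HSCs. The ratio of Mcpt8 in GFP- HSCs against MPPs was -9.05 with a pseudocount of 1 and -4.78 with 20. With 20, Mcpt8 was no longer the lowest of the 10, and Mpo was lower at -5.61. At the 4-fold threshold 1 granule gene, Prg2, differed between the HSC fractions in place of 3. No ratio of a granule gene changed sign under any alternative. Prg2 passed 2-fold between GFP- HSCs and MPPs once the trend was removed (-1.17), Cst7 no longer passed it between the HSC fractions with a pseudocount of 20 (-0.93), and Mcpt8, at 0 and 2, passed it there with a pseudocount of 1 (1.58). Scaling to upper quartiles moved the median of all genes to 0.10 for GFP- HSCs and 0.11 for GFP+ HSCs against MPPs. No paired analysis was possible because each population had 1 library. The depth is unknown, so levels of a few counts, as for Mcpt8 in HSCs and Prg2 in GFP+ HSCs, carry no counting interval.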
